A study of Ovis aries with 16 samples.

Results

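OCLN encodes occludin, a membrane protein of tight junctions. It was 1 of 1029 gene names on the ovine array, and it was chosen by its HK minus HC difference, which earlier analysis of these same arrays had ranked among the higher genes. The members were all probes whose gene name in the scanner files is OCLN, and there was 1 such probe with 1 spot on each array. The arrays held RNA from the hypothalamus of late-gestation fetal sheep, 16 fetuses in all, each on its own array. All fetuses carried catheters. The stimulus lasted 30 min, recovery took 23.5 h, and tissue was therefore collected at 24 h. The 4 groups were normoxia with saline (NC, n = 3), normoxia with ketamine (NK, n = 4), hypoxia with saline (HC, n = 5) and hypoxia with ketamine (HK, n = 4). Hypoxia was produced by adding nitrogen to the gas that the ewe breathed, and saline or ketamine, an NMDA receptor antagonist used as an anesthetic, was given to the fetus intravenously beforehand. Most fetuses were twins, and the labels do not say which shared a ewe, so littermates could not be separated in any test. The tissue was a dissected block of hypothalamus. Fewer cells of a type and less RNA per cell cannot be told apart in it.

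Tight junctions seal the space between neighbouring endothelial or epithelial cells. Occludin and the claudins span the membrane, and the zonula occludens proteins, among them TJP1 and TJP3, which the array names ZO1 and ZO3, tie them to the actin cytoskeleton. In brain, such junctions between capillary endothelial cells and between the epithelial cells of the choroid plexus form the barriers between blood and neural tissue. Cytokines are known from other systems to loosen these junctions.

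The probes of OCLN and CLDN3 are shown because both genes were read well above background on every array and the results turn on them. Each is 60 bases long and written 5′ to 3′ as the scanner files give it. The files do not place the probes in a genome build, and no position within the transcript is given.

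OCLN: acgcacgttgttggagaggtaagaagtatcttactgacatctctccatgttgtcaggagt

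CLDN3: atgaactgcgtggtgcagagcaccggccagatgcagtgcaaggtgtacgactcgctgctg

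The OCLN probe was designed on an expressed sequence tag. Its GC content was 45%, against a median of 43.3% over all 15008 probes. No other probe on the array shared a run of 20 bases with it on either strand. The CLDN3 probe, at 60% GC, shared such a run with 1 other probe, which was also named CLDN3.

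Levels were log2 processed signals relative to the 75th percentile of the same array, so a level of -3 is a signal at an eighth of that percentile. The OCLN spot was well above background on 16 of 16 arrays, saturated on 0 and marked as an outlier on 0. Its processed signal ran from 53.9 on HC replicate 4 (HC4) to 327 on HK replicate 1 (HK1). The local background under the spot was between 13 and 23 on every array.

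In NC, OCLN was at -2.87, -3.05 and -2.87. In NK it was at -2.85, -2.96, -2.96 and -3.24. In HC it was at -3.37, -3.42, -3.17, -4.67 and -3.03. HC4 lay far below the other HC arrays, which ran from -3.42 to -3.03. In HK it was at -2.00, -2.69, -2.82 and -2.98, and HK1 lay above the other HK arrays. The group means were -3.53 ± 0.65 (SD, n = 5) in HC, -3.00 ± 0.16 (n = 4) in NK, -2.93 ± 0.10 (n = 3) in NC and -2.62 ± 0.43 (n = 4) in HK. In that order each group overlapped the next, so neighbouring groups were not separated beyond their spread. The SD was wider in both hypoxic groups than in both normoxic groups, and that difference in spread was not tested. It leaned on HC4 and HK1. The other HC arrays ran from -3.42 to -3.03 and the other HK arrays from -2.98 to -2.69, beside -3.24 to -2.85 in NK. HC and HK did not overlap, since the highest HC array, at -3.03, lay just under the lowest HK array, at -2.98.

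**Figure D1:**
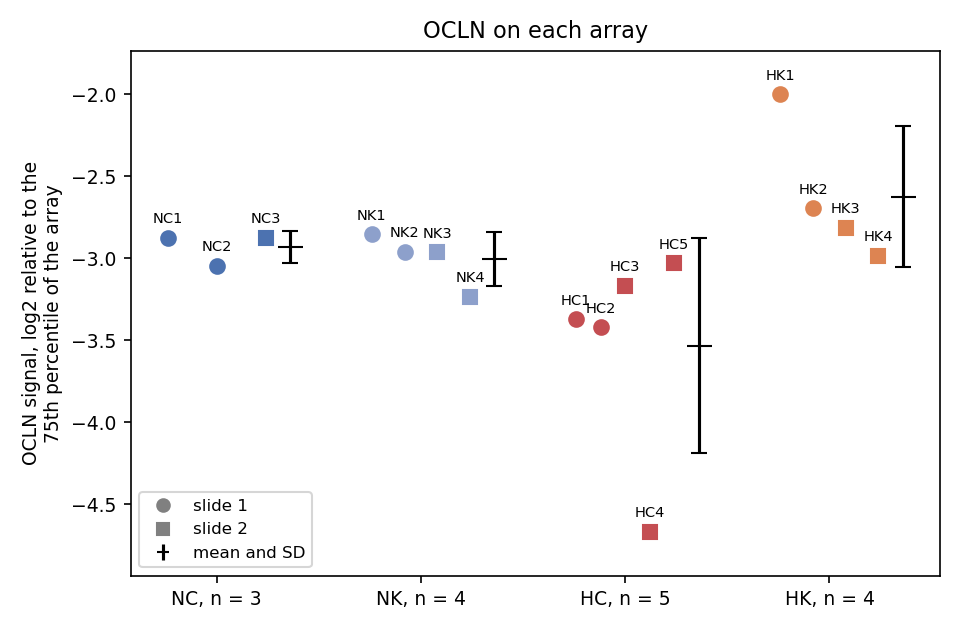
OCLN on each array (y axis, log2 signal relative to the 75th percentile of that array) in the 4 groups (x axis). Points are arrays, circles for slide 1 and squares for slide 2, and bars are group means with SD. HC4 sits at -4.67 and HK1 at -2.00, while the other 14 arrays lie between -3.42 and -2.69.

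The difference between HK and HC was the one that selected the gene, so it is given as a description with no test. OCLN was higher in HK than in HC by 0.91 ± 0.28 (SE) on the log2 scale, or 1.88-fold. Over the array, 7.04% of the 12249 probes tested passed an unadjusted p of 0.05 in this comparison with limma, and in 1.53% of 12192 probes the HK and HC arrays did not overlap. Much of the size of the difference came from HC4 and HK1. Without HC4 it was 0.62, without HK1 it was 0.70, and without both it was 0.42. Both slides had it, at 1.05 on slide 1 (2 HK and 2 HC arrays) and 0.72 on slide 2 (2 HK and 3 HC arrays). Slide 1 holds HK1 and slide 2 holds HC4, so each of these values includes 1 of the extreme arrays. Apart from HC4, the HC arrays on slide 2 were at -3.17 and -3.03, and the HK arrays there at -2.82 and -2.98. The size also moved with background correction. It was 0.52 after normexp correction and 0.44 in the deposited log2 values, where background had been handled by normexp as well.

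**Figure D2:**
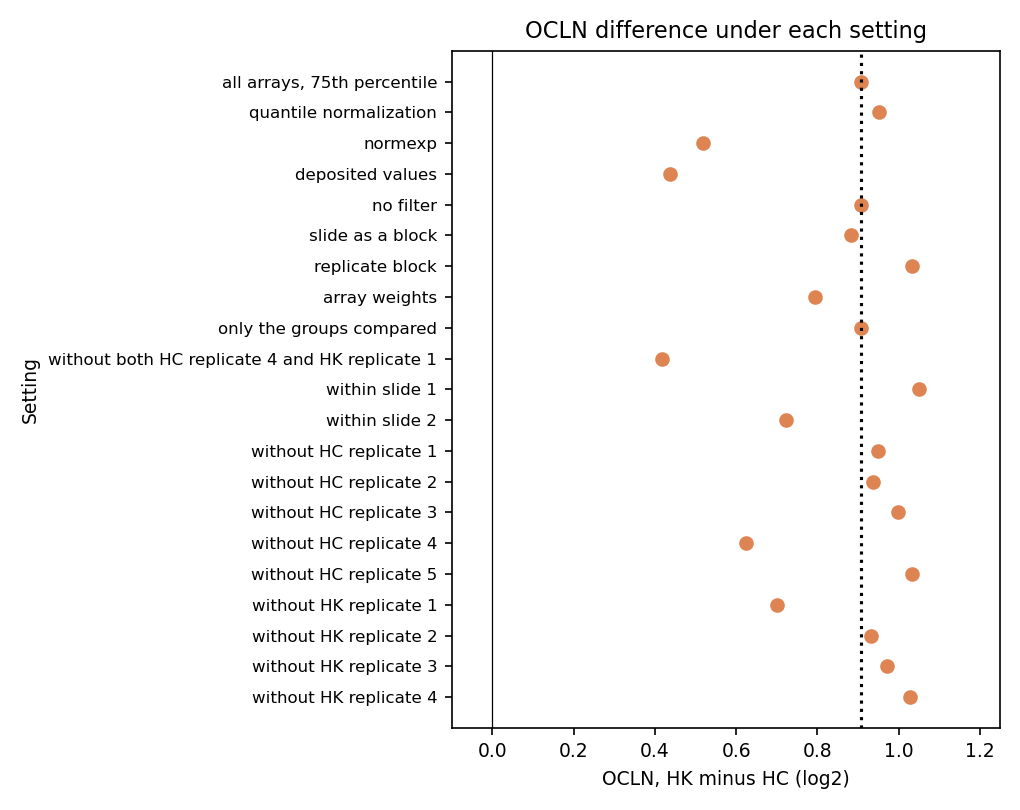
OCLN difference, HK minus HC (x axis, log2), under each way of processing and without each hypoxic array (y axis). The dotted line marks 0.91, the value with all arrays, and the lowest point is 0.42, without HC4 and HK1.

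The other comparisons of OCLN that share the HC or HK arrays are likewise given without a test. HC was lower than NC by a fitted log2 difference of -0.60 ± 0.31 (SE), with a 95% interval from -1.26 to 0.06. Without HC4 this difference was -0.32, after normexp correction -0.28 and with the deposited values -0.23. HK was higher than NK by 0.38 ± 0.30, and without HK1 by 0.17. The ketamine difference under hypoxia minus that under normoxia was 0.98 ± 0.43. HK minus NC was 0.31 ± 0.32, with an interval from -0.38 to 1.00. In these comparisons 8.15% of probes were called for HC against NC, 8.69% for HK against NK and 3.8% for the difference between the ketamine differences.

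The mean difference between NK and NC used no hypoxic array and was tested. It asks whether ketamine was followed by a different OCLN level without hypoxia. OCLN was lower in NK by a log2 difference of -0.07 ± 0.32 (limma adjusted p = 1), with a 95% interval from -0.76 to 0.62. The spread in that fit was estimated over all 4 groups, the hypoxic arrays included. In a fit of the NK and NC arrays alone the SE was 0.11 and the interval ran from -0.34 to 0.20 (limma adjusted p = 1). An exact two-sided permutation test over 35 rearrangements of these arrays gave p = 0.657. In this comparison 1.09% of all probes passed the unadjusted threshold.

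The other tight junction genes described here did not pass the unadjusted threshold in any of the 5 comparisons. The list holds 39 of them, of which 7 were on the array and 3 had a probe that was well above background on at least 3 arrays. CLDN2, CLDN17, TJP3 and F11R, which encodes the junctional adhesion molecule JAM-A, were too dim to test. The counts were 0 of 3 in each comparison at an unadjusted p of 0.05, and 0 after Benjamini-Hochberg adjustment. Over all probes the unadjusted share ran from 1.09% for NK against NC to 8.69% for HK against NK. With 3 genes, a count of 0 is near those shares and does not set the genes apart. The median difference of the 3 genes was -0.13 for HK against HC, beside 0.03 over all tested probes. For HC against NC the median was 0.09, beside -0.03 over all tested probes.

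CLDN3, a barrier-forming claudin, was read on all 16 arrays. Its levels were -1.64, -1.94 and -1.66 in NC and -1.70, -1.84, -1.47 and -1.75 in NK. In HC they were -1.33, -1.11, -1.51, -2.68 and -1.65, and in HK -1.02, -1.33, -1.66 and -1.39. HC4 was the lowest of all 16 arrays for CLDN3 as it was for OCLN, and HK1 was the highest for both. These extremes were not particular to tight junction genes. The endothelial gene PECAM1 was also lowest on HC4, at -0.69, and highest on HK1, at 0.61. NOS3, another endothelial gene, was lowest on HC4, at -3.96, but low on HK1 too, at -2.92. For CLDN3, HK minus HC was 0.30 ± 0.25 (limma adjusted p = 0.822), and the groups overlapped. The other 2 CLDN3 probes gave 0.30 and 0.24 for the same difference.

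CLDN1, another barrier-forming claudin, was well above background on 7 of 16 arrays, 0 of them in NC and 4 in HC. HC minus NC was 0.99 ± 0.52 (SE, limma adjusted p = 0.656) and was not called. With the NC mean placed at a detection floor, the HC mean was 1.56-fold that of NC, so the size is uncertain. Leaving out HC1 brought CLDN1 under the unadjusted threshold in that comparison. TJP1, a scaffold protein, was read well above background on 6 of 16 arrays, and HK minus HC was -0.13 ± 0.58.

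**Figure D3:**
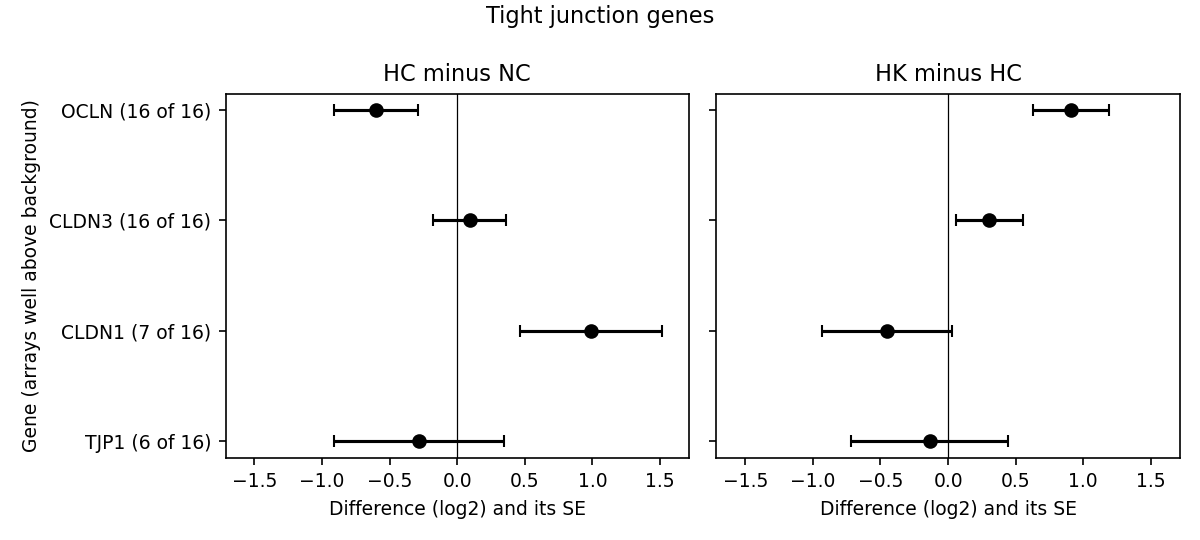
Fitted differences with their SE (x axis, log2) for OCLN and 3 other tested tight junction genes (y axis, with the number of arrays well above background), HC minus NC on the left and HK minus HC on the right. OCLN lies at -0.60 and 0.91, and the bars of CLDN1 and TJP1, the dim genes, are the widest.

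Genes of vessels and of the matrix around them were listed as well. Of 7 tested endothelial genes, 1 was called higher in HC than in NC and 0 were called between HK and HC, where 4.22% of all probes were called higher and 7.04% were called in either direction, respectively. That gene was ABCB1, the efflux pump of the blood-brain barrier, at 0.48 ± 0.18 (SE). The second probe of ANGPT2, an angiopoietin, was also called in HC against NC, at 0.97, while its brightest probe gave 0.50 and was not. PECAM1, an adhesion molecule of endothelial cell borders, did not pass in either comparison, with 0.03 ± 0.24 and 0.19 ± 0.22. A separate list of endothelial adhesion had 4 tested genes, with 2 called higher in HC than in NC, where 4.22% of all probes were. The others, at -0.28 and 0.38, were not called. SELP, the P-selectin that captures leukocytes on vessel walls, was called higher by 4.70 (SE 1.1). ITGAM, a leukocyte integrin subunit, was called higher by 0.74 ± 0.33. Both were well above background on 5 of 5 HC but only 2 of 3 NC arrays, so the NC side of these sizes is uncertain. The second ITGAM probe gave 0.26 and was not called.

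Of 4 tested genes for gap and adherens junctions, 0 were called in either comparison. Over all probes 8.15% were called for HC against NC and 7.04% for HK against HC, so 0 of 4 is near those shares. Of 6 tested genes for metalloproteinases and their inhibitors, 1 was called lower in HK than in HC, where 3.79% of all probes were. It was TIMP3, an inhibitor of matrix metalloproteinases, at -0.46 ± 0.14. By their brightest probes 0 of the 6 were called in HC against NC, where 8.15% of all probes were. A dimmer probe of MMP2 was called there, at -0.41, while its brightest gave -0.0017 and another -0.80, neither of them called. Of 5 tested VEGF and growth factor genes, 1 was called in each comparison, where 4.22% of all probes were called higher in HC and 3.79% lower in HK. FGF2, a fibroblast growth factor with angiogenic activity, was called in both comparisons, higher in HC than in NC by 0.84 ± 0.23 and lower in HK than in HC by -0.72 ± 0.21. These 2 comparisons share the HC arrays. None of these genes passed after adjustment over all probes.

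The inflammatory list was set beside OCLN array by array. It had 21 tested genes, of cytokines, chemokines, pattern recognition receptors and their signalling proteins. At the unadjusted threshold 13 of 21 were higher in HC than in NC, where 4.22% of all probes were called higher. Between HK and HC 9 of 21 were lower, where 3.79% of all probes were called lower. The 9 were CD14, TLR2, NFKBIA, PTGS2, TNF, IL6, IL18, C3 and C5AR1. The 13 were CD14, TLR2, NFKBIA, PTGS2, TNF and C5AR1 together with CXCL10, IL1B, IL1RN, PTX3, TLR4, IRF1 and SELP, while IL6, IL18 and C3 were not called in HC against NC. Second probes of PTGS2 and CD14 did not pass in HK against HC, with -1.38 and -1.18, and that of PTGS2 did not pass in HC against NC, with 0.92. Second probes passed where the brightest did not for IL1A in HK against HC, with -1.15, and for CXCL8 in HC against NC, with 4.63. After adjustment 0 passed in either comparison. The count of 9 fell to 5 without HC4 and also to 5 without HK replicate 3.

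Per array, the list was summarised as the mean of its genes after each was scaled to its own mean and SD over the 16 arrays. This score was highest on HC4, at 1.59, where OCLN was lowest. The HC arrays next in score, HC2 at 1.19 and HC1 at 0.82, were also the next lowest in OCLN. HC3 and HC5 had the lowest scores in HC, at 0.10 and -0.01, and the highest OCLN of that group. So within HC the order of the arrays by OCLN was the reverse of their order by score. In HK the order was not reversed, since HK2 had the highest score of the group, at 0.56, and the second highest OCLN. HK3 had the lowest score of all 16 arrays, at -0.74, with OCLN at -2.82. Over all 16 arrays Pearson r was -0.72 and Spearman rho was -0.61. These describe the arrays with no p, since the groups that chose the gene enter them.

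Deviations from the group means do not use the differences between groups and were tested. The same arrays, HC4 among them, set the difference that chose the gene, so the test is not fully separate from that choice. Pearson r between the OCLN deviation and the mean standardised deviation of the list was -0.63, with an exact two-sided permutation p = 0.072 over 414720 rearrangements within groups. Spearman rho of the same deviations was -0.54, with an exact permutation p = 0.0594. This 1 relation was tested, and neither measure passed the threshold. Without HC4 r was -0.37, with an exact permutation p = 0.358. Without HC2 and HC4, the 2 arrays farthest from the median of the score, r was -0.30, with an exact permutation p = 0.571. Without HC2 alone it was -0.70, with an exact permutation p = 0.0904, so of these 2 arrays the weaker value followed HC4.

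The relation was also taken with the slide accounted for. With slide as well as group removed, r was -0.87, with an exact permutation p = 0.00781 over 384 rearrangements. Within slide 1 r was -0.92 over 8 arrays, with an exact permutation p = 0.375 where 0.125 is the smallest that 16 rearrangements allow. Each group had 2 arrays on slide 1, so its 2 deviations mirror each other and the 8 points are not independent. Within slide 2 r was -0.97 over the 7 arrays of groups with more than 1 array there, with an exact permutation p = 0.0417, the smallest that 24 rearrangements allow. Slide 2 holds HC4, and NK and HK have 2 arrays each there, so the same holds for them. The relation also passed the threshold under other scalings, with r of -0.71 after quantile normalization, -0.79 after normexp correction and -0.76 in the deposited values.

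**Figure D4:**
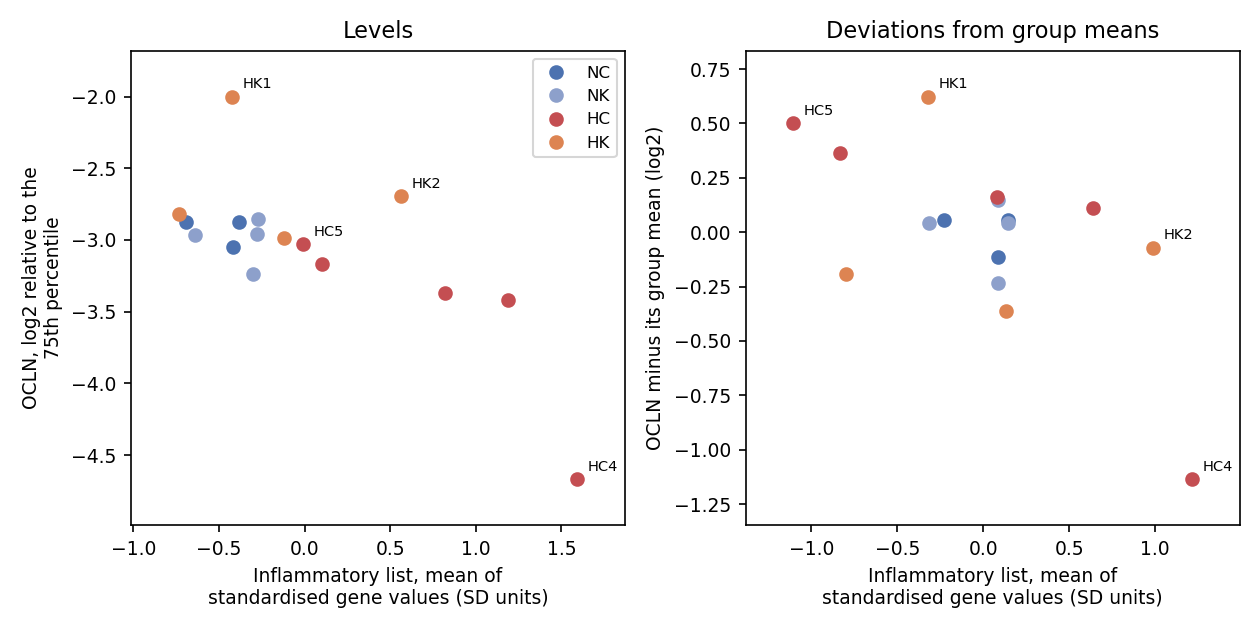
OCLN (y axis, log2) against the inflammatory score (x axis, SD units), as levels on the left and as deviations from group means on the right, with 1 point per array coloured by group. HC4 is at the lower right of both panels, and HK2 combines a score of 0.56 with an OCLN level of -2.69.

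By gene, 19 of the 21 had a negative r with OCLN over the 16 arrays, with a median of -0.57. Over all 12171 probes measured on every array the median r was 0.07, and 41.6% were negative. All these values share the same arrays, and HC4 and HK1 enter each of them. The groups that chose the gene also enter them, so they are a description and not separate support. IL1B, a cytokine made by activated macrophages, had the lowest r, at -0.79. TLR2, a receptor for bacterial lipoproteins, followed at -0.77, and the cytokine IL6 at -0.75. TNF was at -0.63, PTGS2, the inducible cyclooxygenase, at -0.57, and TLR4, the endotoxin receptor, at -0.58. IL1RN was at -0.64, IRF1 at -0.62, IL18 at -0.61, CXCL10 at -0.59 and IL1A at -0.58. PTX3 was at -0.57, CXCL8 at -0.54, NFKBIA at -0.52 and C5AR1 at -0.50. SELP, CD14 and C3 were between -0.44 and -0.43. MYD88, the adaptor that most Toll-like receptors share, was at -0.11. SELE, read well above background on 3 arrays, was at 0.22. CXCL1, named GRO on the array, was saturated on all 16 arrays, so its 0.02 carries no order. In deviations from group means 20 of the 21 were negative, with a median r of -0.40. Over all probes that median was 0.03, and 46.6% were negative. For single genes the within-group r ran unevenly, with IL1B at -0.80 but C3 at -0.14, CD14 at -0.07 and C5AR1 at -0.003.

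TLR2 is given as an example, picked after its r was seen. It was at -2.92, -2.75, -3.06, -2.00 and -3.63 in HC and at -3.77, -3.56, -4.23 and -3.21 in HK. HC4 was the highest and HC5 the lowest HC array. Without HC4 and HK1 the r of TLR2 with OCLN was -0.74, which still contains the difference between the groups that chose OCLN. IL1B was at -0.58, -1.64, -2.21, 0.17 and -1.96 in HC, and its r without the same 2 arrays was -0.53. For the list, 18 of 21 genes stayed negative without them, with a median r of -0.42. In the 7 normoxic arrays 12 of 21 were negative, with a median of -0.09, and in the 9 hypoxic arrays the median was -0.61.

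**Figure D5:**
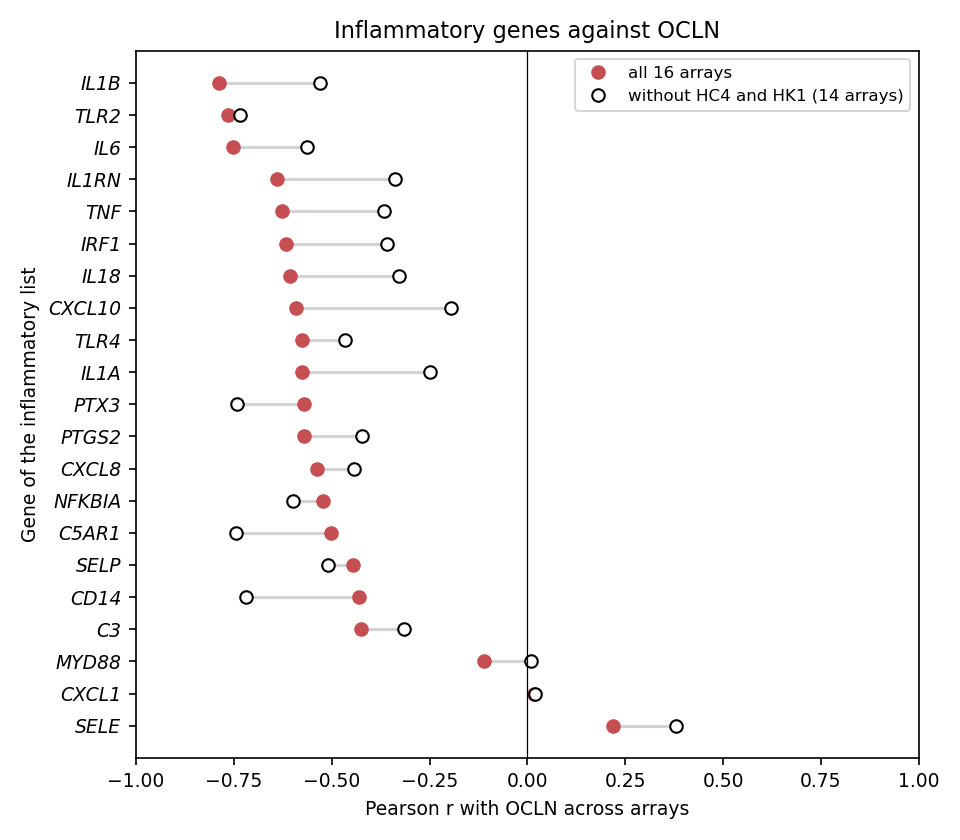
Pearson r with OCLN across arrays (x axis) for each of the 21 inflammatory genes (y axis), with all 16 arrays as filled points and without HC4 and HK1 as open points. Most filled points lie between -0.79 and -0.43, and CXCL10 moves from -0.59 to -0.20.

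The genes most like OCLN were taken from 749 named genes well above background on at least 12 arrays. The highest r were those of LAT1, a subunit of the L-type amino acid transporter (0.80), AIMP2, a scaffold of the tRNA synthetase complex (0.71), CLDN3 (0.70), LOC780442, a succinate dehydrogenase subunit (0.66), and ACVR1, an activin receptor (0.66). The lowest were those of IFNAR2, a subunit of the type I interferon receptor (-0.83), LOC780506, annotated as pre-B-cell colony enhancing factor (-0.81), PPARG, a nuclear receptor (-0.81), the transcription factor ETS2 (-0.79) and TIMP3 (-0.79). Each r is over 16 arrays. HC4 was the lowest array for LAT1, AIMP2, CLDN3, LOC780442 and ACVR1, and the highest for IFNAR2, LOC780506, PPARG, ETS2 and TIMP3. The other CLDN3 probes had r of 0.61 and 0.23. Without HC4 and HK1 the r of CLDN3 with OCLN was -0.35, that of ACVR1 -0.13, that of LAT1 0.35 and that of IFNAR2 -0.38. TIMP3 and PPARG stayed at -0.67 and -0.66. TIMP3 was at -0.80 on HC4 and at -1.90 to -1.52 in HK.

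Markers of cell types were set beside OCLN. Of the 7 tested endothelial genes, 5 had a positive r with OCLN, with a median of 0.13 and a lowest value of -0.48. PECAM1 had r = 0.63 and NOS3 r = 0.56, both read well above background on 16 arrays. Without HC4 and HK1 the r of PECAM1 was -0.16 and that of NOS3 was 0.51. The hypothalamic peptide genes OXT, POMC, NPY, GNRH1 and AGRP were read well above background on at least 15 arrays each, and their r with OCLN ran from 0.03 to 0.28. Their median r without HC4 and HK1 was -0.27, with 4 of the 5 negative. The list of neuronal and of oligodendrocyte markers had 0 genes on the array. Of the astrocyte genes, GFAP had r = -0.03, and AQP4 was saturated on 14 arrays. SLC1A2, the glial glutamate transporter named GLT-1 on the array, had r = 0.74, but was well above background on 6 of 16 arrays. SLC1A2 was called lower in HC than in NC and higher in HK than in HC, but was well above background on only 1 of 3 NC, 1 of 5 HC and 2 of 4 HK arrays, and no size is given. TTR, a choroid plexus gene, had r = -0.07. Of the pituitary genes PRL had r = -0.18, and LHB was higher in HK than in HC by 0.19 ± 0.08 on its brightest probe, where the other probe gave -0.34 and was not called. HBB, a blood gene, had r = -0.31. Of the genes read for microglia and macrophages, CD14 had r = -0.43 and ITGAM, the other one tested, r = -0.0027. The part of these cells in the OCLN differences was not tested.

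HC4 did not stand apart over the whole array. Its median correlation with the other HC arrays over the tested probes was 0.969, within the range of 0.966 to 0.970 of the HC arrays, and 76.0% of its probes were well above background, within the range of 71.7 to 80.6% over the 16 arrays. The 75th percentile of the processed signal, which sets the scale of each array, ran from 1248 to 1597.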

How the data were processed

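RNA from 16 fetal hypothalami was labelled with Cy3 and hybridised to 1-colour Agilent ovine arrays, with 8 arrays on each of 2 slides. The deposited scanner files hold intensity values, background-subtracted and detrended by the authors with Feature Extraction 10.1.1.1 per the file headers. The authors also deposited a log2 table, which was rebuilt to within 5e-09 as normexp correction followed by quantile normalization. Signals were scaled here to each array's 75th percentile after log2. Control spots and outlier spots (0.0801%) were left out, and spots of a probe were averaged. A probe was tested when well above background on at least 3 arrays, which left 12249 of 15008. limma 3.58.1 in R 4.3.3 fitted all 4 groups together, with 13.7 total degrees of freedom, and calls use an unadjusted p of 0.05, as in the study's methods, with Benjamini-Hochberg adjusted values beside it. The precision is limited by the number of arrays. P-values measure the spread between fetuses, which may share ewes.

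The gene, the lists and the tests were chosen with earlier results of these data known. Genes named are OCLN, tested tight junction genes, other listed genes called in HK against HC or HC against NC, every tested inflammatory gene, and the 5 highest and 5 lowest in Pearson r with OCLN. PECAM1, NOS3, ANGPT2, MMP2 and the cell type markers given beside OCLN were named outside this rule, after their values were seen. The brightest tested probe stood for each gene. One item is not reported here, and other listed genes enter as counts. The fit and the permutation test were tested on simulated data. Alternatives covered scaling, background correction, filter, slide, replicate numbers, array weights and left-out arrays. Names are those of the array, which can be old.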

Additional observations from a re-analysis of the deposited data

Results flagged for a closer look

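Dixon's test for a stray array was run on OCLN, the inflammatory score and 3 other tight junction genes in the 3 groups of at least 4 arrays, 15 sets in all, and marked 3. Chance marks about 1 set in 20. OCLN on HC4, at -4.67, lay below the other HC arrays by 0.76 of the range of the group. TJP1 on HC2 was at -8.63, where TJP1 was a dim probe. The inflammatory score on NK3 was -0.64, below the other NK arrays.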

How the results depend on the processing

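The OCLN difference between HK and HC was above 0 under every setting run. It was 0.44 with the deposited values and 0.42 without both HC4 and HK1, an alternative chosen after seeing the data, as were the within-slide values. With 1 array left out at a time it ran from 0.62 (without HC4) to 1.03 (without HC5). The difference between the ketamine differences was 0.47 with the deposited values and 0.49 without both arrays, and ran from 0.70 to 1.11 with 1 array left out. HC against NC was -0.28 after normexp and -0.23 with the deposited values. With 1 array left out it ran from -0.73 to -0.32, the latter without HC4, and HK against NK from 0.17 (without HK1) to 0.50. NK against NC ran from -0.13 to 0.0056, the value above 0 being that without NK4. Normexp correction gave OCLN a signal above its measured foreground on 4 of 16 arrays before quantile normalization, in the deposited values too.

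The number of other tight junction genes called was 0 under all settings for NK against NC, HK against HC and the difference between the ketamine differences. It was 1 for HC against NC without HC1 (CLDN1) and without both HC4 and HK1 (CLDN3), so from 0 to 1 with 1 array left out, and 1 for HK against NK without HC4 (CLDN3). The inflammatory genes higher in HC ranged from 9 to 14 with 1 array left out. Those lower in HK, 9 with all arrays, ranged from 5 (without HC4, and also without HK3) to 13, and were 4 in a fit of those groups alone and 4 without both HC4 and HK1.

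The relation within groups had r = -0.71 after quantile normalization, -0.79 after normexp, -0.76 with the deposited values, -0.87 with slide removed and -0.97 within slide 2, all with an exact permutation p under the threshold. With 1 array left out r ran from -0.76 (without HK3) to -0.37 (without HC4), and it passed the threshold without HK1, HK2 or HK3. Without the saturated CXCL1 probe it was -0.64, also chosen after seeing the data. The cause of these changes was not tested.

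Replicate numbers recur across groups but coincide with slides, and nothing in the labels pairs the fetuses. Deviations of same-numbered arrays correlated between -0.06 and 0.35, and 9 of 15 arrays were closest to an array of their own number. With a replicate block the OCLN difference was 1.03 for HK against HC and 0.11 for NK against NC, the reverse of its sign, and 15 inflammatory genes were lower in HK. Among the group levels only the small NK deviation changed sign, in the deposited values.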
